A study of Homo sapiens with 6 samples.

Results

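Collagen-modifying enzymes were followed in U937, an established human monocytic cell line, through 10 genes: P4HA1, P4HA2, P4HB, PLOD1, PLOD2, PLOD3, P3H1, SERPINH1, COLGALT1 and CERCAM. They were looked up by gene symbol among the 18798 genes of a table of RNA-seq read counts. Of the 10, 9 had a row. PLOD2 had none and was not analysed here, and the table holds genes with at least 10 counts over the 6 libraries together. The set was chosen by function, around P4HA1 and CERCAM, which had been selected on their measured differences in counts between the same ΔNSPs and Control libraries. Their differences between the groups are therefore given as a description, with standard errors (SE) and without p-values.

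The 3 ΔNSPs libraries came from U937 clones depleted together of CTSG, ELANE and PRTN3, which encode the neutrophil serine proteases cathepsin G, elastase and proteinase 3. The 3 Control libraries came from separate U937 lines carrying control plasmids. All 6 had been transduced with plasmids and selected with geneticin at 500 µg/ml, and each ΔNSPs library stands for 1 clone. The labels state no other treatment.

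Procollagen chains are modified in the endoplasmic reticulum before they fold into a triple helix. Prolyl 4-hydroxylase, a tetramer of P4HA alpha subunits and the P4HB beta subunit, makes the 4-hydroxyproline that stabilises the helix, and needs oxygen, iron, 2-oxoglutarate and ascorbate. Lysyl hydroxylases of the PLOD family and the prolyl 3-hydroxylase P3H1 modify other residues, COLGALT1 adds galactose to hydroxylysine, and the chaperone HSP47, product of SERPINH1, binds the folded helix. The same hydroxylation occurs in other proteins with collagen-like repeats, some of them made by myeloid cells. P4HA1, P4HA2, PLOD1 and PLOD2 are known targets of the hypoxia-inducible factor HIF-1.

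The promoters of P4HA1 and CERCAM are shown because these genes had the widest gaps between the groups among the well-measured members, and that of COLGALT1 because it is the paralogue of CERCAM and its groups overlapped. Each window runs from 250 bases before to 50 bases after a start site, 5′ to 3′ on the gene's strand, and comes from RefSeq on GRCh38.p14. Capitals mark the core letters of the hypoxia response element, ACGTG or GCGTG, on either strand (CACGT or CACGC when read from the other strand).
P4HA1 chr10:73096817-73097116, minus strand: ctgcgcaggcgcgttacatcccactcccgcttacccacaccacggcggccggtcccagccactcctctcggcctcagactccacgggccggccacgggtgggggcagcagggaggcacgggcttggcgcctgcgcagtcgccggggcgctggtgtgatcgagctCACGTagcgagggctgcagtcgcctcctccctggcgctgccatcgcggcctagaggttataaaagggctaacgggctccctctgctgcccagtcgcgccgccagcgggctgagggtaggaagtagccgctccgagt
CERCAM chr9:128420607-128420906, plus strand: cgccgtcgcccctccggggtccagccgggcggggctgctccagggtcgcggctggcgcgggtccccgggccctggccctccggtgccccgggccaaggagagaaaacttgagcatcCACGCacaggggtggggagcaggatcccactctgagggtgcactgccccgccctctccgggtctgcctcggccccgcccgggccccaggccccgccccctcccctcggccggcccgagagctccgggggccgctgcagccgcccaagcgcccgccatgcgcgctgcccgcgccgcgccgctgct
COLGALT1 chr19:17555399-17555698, plus strand: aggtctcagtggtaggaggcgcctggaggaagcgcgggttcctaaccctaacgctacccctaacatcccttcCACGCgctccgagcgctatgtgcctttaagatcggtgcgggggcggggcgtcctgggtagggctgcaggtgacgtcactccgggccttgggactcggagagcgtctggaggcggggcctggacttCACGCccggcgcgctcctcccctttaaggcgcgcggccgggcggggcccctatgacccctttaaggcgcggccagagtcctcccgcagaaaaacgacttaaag
Positions are counted from the RefSeq start sites, which can lie inside the gene spans given below, so a core upstream of one can lie inside the gene. That holds for the P4HA1 core and for both CERCAM windows, as the CERCAM span begins at 128411751. The P4HA1 window held 1 core, ACGTG, beginning 86 bases upstream of its start site. This CERCAM window held 1 core, GCGTG, 134 bases upstream, and the window at the other RefSeq start of CERCAM held none. The COLGALT1 window held 2 GCGTG cores, 178 and 53 bases upstream. All 10 genes had a promoter entry, 12 windows in all, and 9 windows from 8 genes held a core; P4HA2 and PLOD3 had none. Such short letters are common: 48.4% of all 35116 promoter windows held at least 1 of the 2 cores. The endoplasmic reticulum stress element, searched as its usual sequence with a spacer of any bases, was in 0 of the 12 windows and in 0.0769% of all windows, on either strand. A match is a description of letters, and binding was not measured.

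Library totals ran from 11476619 to 13782854 counts, and values below are CPM, counts scaled to a common library size, after scaling of the totals by the trimmed mean of M-values (TMM). At these depths 3 counts correspond to 0.214 to 0.26 CPM, which covers counting error only. CTSG stood at 136, 110.3 and 45.2 CPM in ΔNSPs clones 1 to 3, against 1895, 2474 and 2752 CPM in Control lines 1 to 3. ELANE and PRTN3 were likewise below every Control line in every clone. Of 15 monocytic marker genes all had a row, and 10 averaged above 10 CPM, among them SPI1, CEBPA, MNDA and CD33. Their summed level was 1179 to 1639 CPM in ΔNSPs and 1280.4 to 1441 CPM in Control. Of the 13 that were tested, edgeR called 0. By unadjusted p (threshold 0.05) 4 were up and 0 down, against 1366 up and 1272 down of all 14797 tested genes. DESeq2 called 1 (FCER1G) as higher, against 279 of the 12485 genes to which it gave an adjusted p. Without clone 1, edgeR called 3 of the markers as higher, against 457 of 15050 tested genes. FCER1G, an Fc receptor subunit of myeloid cells, was at 21.0, 62.4 and 54.5 CPM in ΔNSPs and 21.7, 17.9 and 19.8 CPM in Control (edgeR adjusted p = 0.181), and its part in the results below was not tested. CD14 reached 0.337 CPM at most and CD68 1.14 CPM. Fibroblast markers, which would bring collagen enzymes with them, summed to 1.35 to 18.6 CPM in ΔNSPs and 11.4 to 13.5 CPM in Control, with 0 of 10 averaging above 10 CPM and no row for LUM or POSTN. Control line 1 often lay away from Control lines 2 and 3, and ΔNSPs clone 1 away from clones 2 and 3, in the results below. In bulk RNA, fewer cells of a type and less RNA per cell cannot be told apart.

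P4HA1, the main catalytic alpha subunit of prolyl 4-hydroxylase, was lower in every clone than in any Control line. P4HA1 (ENSG00000122884, chromosome 10, 73007217 to 73096974 on GRCh38) stood at 41.3, 42.5 and 45.3 CPM in ΔNSPs clones 1 to 3, against 87.7, 202 and 241 CPM in Control lines 1 to 3. The clones were close together and the Control lines were not. The highest clone was 1.10 times the lowest, while the highest Control line was 2.74 times the lowest. Among 9880 genes averaging at least 10 CPM, the median of that ratio was 1.27 in ΔNSPs and 1.18 in Control. P4HA1 averaged 43.0 ± 2.07 CPM in ΔNSPs and 177 ± 79.6 CPM in Control (SD, n = 3 each), 24.3% of the Control level. Its log2 fold change, ΔNSPs minus Control, was -2.04 (SE 0.33), and -2.37 without Control line 1. Relative to the mean of the clones, Control lines 1, 2 and 3 stood at 2.04, 4.71 and 5.59 times.

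P4HA2, the alternative alpha subunit (ENSG00000072682, chromosome 5), was near the limit of detection throughout. It had 3, 5 and 1 counts in clones 1 to 3 and 9, 9 and 14 counts in Control lines 1 to 3. In Control that came to 0.652 to 1.21 CPM. All clones lay below all Control lines, but the gene had too few counts to enter the fit. P4HA3, the remaining alpha subunit gene, stood at 5.92, 4.69 and 3.62 CPM in ΔNSPs and at 6.55, 7.03 and 5.46 CPM in Control, and the groups overlapped.

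P4HB encodes the beta subunit and is also protein disulphide isomerase, an abundant enzyme in its own right. P4HB (ENSG00000185624, chromosome 17, 81843159 to 81860694) stood at 1663, 1768 and 1787 CPM in the clones, against 2231, 2515 and 2904 CPM in the Control lines. Groups did not overlap, and the lowest Control line was 1.25 times the highest clone. The means were 1739 ± 66.9 CPM in ΔNSPs and 2549.9 ± 338 CPM in Control (SD, n = 3 each), with a log2 fold change of -0.55 (SE 0.12). An antisense gene on the opposite strand, AC145207.3, shares 529 exonic bases with P4HB and had 768 to 816 CPM in ΔNSPs and 980.3 to 1305 CPM in Control. The strand setting of the counting is not given in the sources used here, so reads of that pair cannot be told apart.

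**Figure D1:**
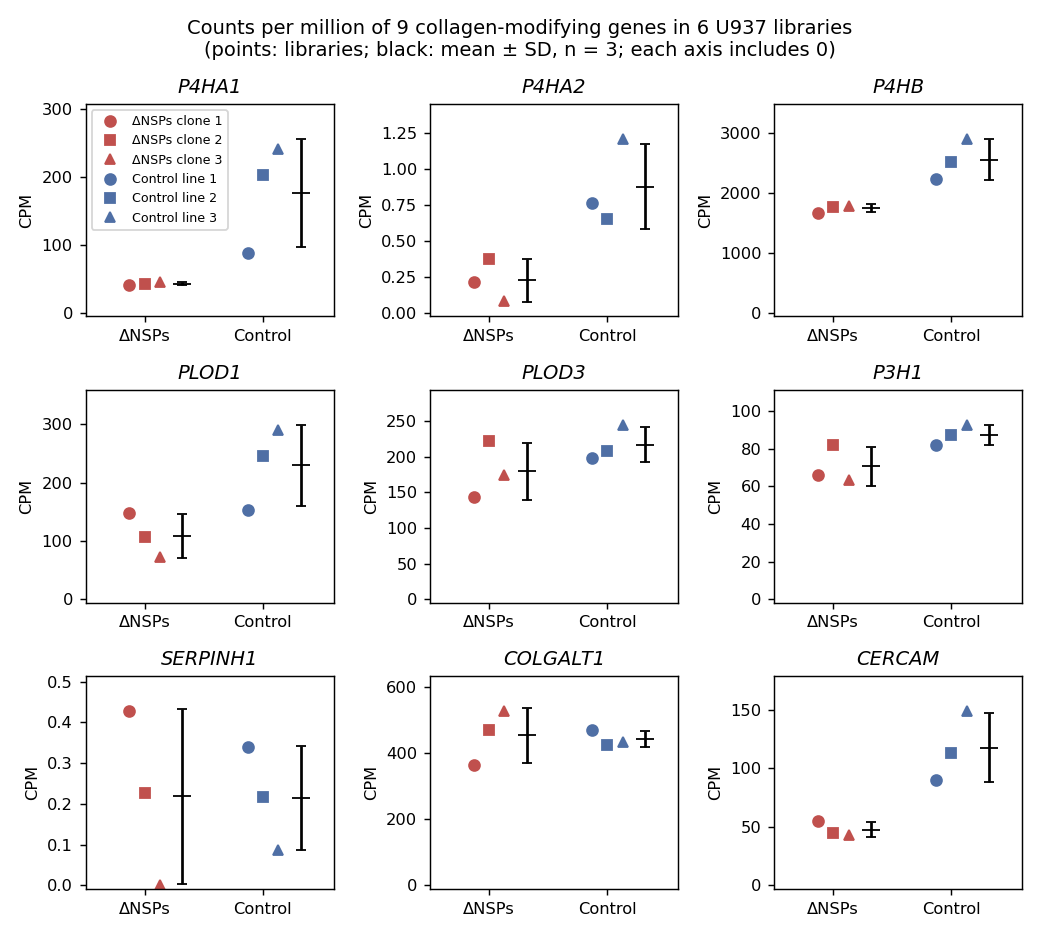
CPM (vertical axes, each including 0) of the 9 measured genes in ΔNSPs clones and Control lines; points are libraries, with shapes for clone or line number, and black marks give the mean ± SD (n = 3). P4HA1, P4HA2, P4HB, PLOD1 and CERCAM have all clones below all Control lines, and for P4HA1 Control line 1 lies at 87.7 CPM, apart from lines 2 and 3 at 202 and 241 CPM.

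Among the lysyl hydroxylases, PLOD1 differed more than PLOD3. PLOD1 (ENSG00000083444, chromosome 1, 11934205 to 11975538), lysyl hydroxylase 1, stood at 149, 106 and 73.2 CPM in the clones and at 154, 246 and 290.2 CPM in the Control lines. The groups met closely: Control line 1 was 1.04 times clone 1. Its mean was 109 ± 37.8 CPM in ΔNSPs and 229.9 ± 69.5 CPM in Control (SD, n = 3 each), a log2 fold change of -1.07 (SE 0.29).

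PLOD3 (ENSG00000106397, chromosome 7, 101205977 to 101218420), the lysyl hydroxylase that also carries glycosyltransferase activity, stood at 143, 221 and 174 CPM in ΔNSPs, against 198, 208 and 244.5 CPM in Control. Clone 2 lay within the Control range and the groups overlapped, with a log2 fold change of -0.27 (SE 0.17). PLOD3 shares 429 exonic bases with ZNHIT1 on the opposite strand, which was at 105 to 119 CPM in ΔNSPs and 112 to 129.5 CPM in Control.

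P3H1, the prolyl 3-hydroxylase (ENSG00000117385, chromosome 1, 42746335 to 42767084), was at 65.9, 82.04 and 63.4 CPM in the clones and at 82.04, 87.0 and 92.6 CPM in the Control lines. Clone 2 and Control line 1 had the same value to this precision. Its log2 fold change was -0.31 (SE 0.13). SERPINH1 (ENSG00000149257, chromosome 11) had 6, 3 and 0 counts in clones 1 to 3 and 4, 3 and 1 counts in Control lines 1 to 3. The HSP47 chaperone transcript, abundant in fibroblasts, was thus at the counting floor in both groups, and no fold change is given.

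The galactosyltransferase gene and its paralogue parted. COLGALT1 (ENSG00000130309, chromosome 19, 17555594 to 17583162) stood at 365, 472 and 528 CPM in ΔNSPs and at 471, 426 and 435 CPM in Control. Clones lay on both sides of the Control range, and the log2 fold change was 0.036 (SE 0.14). CERCAM (ENSG00000167123, chromosome 9, 128411751 to 128437351), which is related to COLGALT1 in sequence and for which no collagen galactosyltransferase activity is known, stood at 54.7, 44.6 and 43.0 CPM in the clones. The Control lines had 90.3, 113 and 149 CPM, and the lowest of them was 1.65 times the highest clone. CERCAM averaged 47.4 ± 6.35 CPM in ΔNSPs and 118 ± 29.5 CPM in Control (SD, n = 3 each), 40.3% of the Control level, with a log2 fold change of -1.31 (SE 0.19) and -1.47 without Control line 1.

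**Figure D2:**
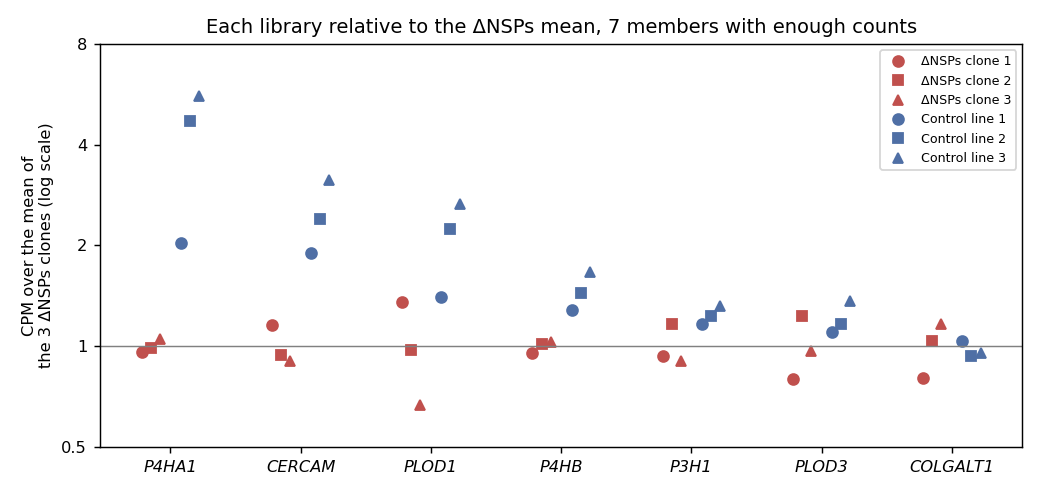
CPM of each library divided by the mean of the 3 ΔNSPs clones (vertical axis, log scale) for the 7 genes that entered the fit, ordered by the size of their difference; red points are clones and blue points are Control lines. Control lines spread upward most for P4HA1 (2.04 to 5.59 times the clone mean) and lie within the clones' range for COLGALT1.

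Of the 9 measured genes, 7 had enough counts to enter the fit over 14797 genes. EdgeR's quasi-likelihood test at a Benjamini-Hochberg adjusted p under 0.05 called 0 of these 7, against 0.0203% of all tested genes (0.0135% as lower and 0.00676% as higher in ΔNSPs). At an unadjusted p under 0.05, 5 of the 7 were lower in ΔNSPs (8.6% of all tested genes were lower and 17.8% passed in either direction), and limma voom called 0. DESeq2 called 4 as lower (P4HA1, P4HB, PLOD1 and CERCAM), against 2.34% of the genes to which it gave an adjusted p (4.57% in either direction). Every clone was below every Control line for 4 of the 7, and for 11.7% of all tested genes (12.2% had every clone above, 23.9% no overlap in either direction). Without clone 1, edgeR called 3 of the 7 as lower (P4HA1, PLOD1 and CERCAM), against 3.13% of tested genes (6.17% in either direction). Without Control line 1 it called 2 (P4HA1 and CERCAM), against 0.125% (0.131% in either direction). Because the genes were put together with this contrast in view, nothing is read from these counts.

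Levels were compared between genes per kilobase of annotated exon. P4HB led in both groups, at 328 ± 12.6 CPM per kb in ΔNSPs and 481 ± 63.7 CPM per kb in Control, followed by COLGALT1 at 92.9 ± 16.9 and 90.6 ± 4.90 CPM per kb in the same groups (SD, n = 3 each). Below these, the order in the clones was PLOD3, PLOD1, P4HA1, P3H1 and CERCAM, and in the Control lines P4HA1, PLOD1, PLOD3, CERCAM and P3H1. P4HA1 was at 13.9 ± 0.671 CPM per kb in ΔNSPs and 57.2 ± 25.7 CPM per kb in Control. The ranges of PLOD3 and PLOD1, and of PLOD1 and P4HA1, overlapped in both groups, so those neighbours were not separated beyond their spread. P4HA2 and SERPINH1 came last in both groups, at 0.103 CPM per kb or less. The length used sets the levels and the middle of this order. Over all 6 libraries P4HB was at 404 CPM per kb with the union of annotated exons and 824 CPM per kb with the longest annotated transcript, and P4HA1 at 35.6 and 38.7 CPM per kb. P4HA1 ranked 3 with the union of annotated exons and 5 with the longest annotated transcript, and P3H1 and CERCAM changed places.

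Ratios within a library, with the union of annotated exons as length, showed how the balance between partners differed. P4HB exceeded the 3 alpha subunit genes together by 21.1, 22.3 and 21.7 times per kilobase in the clones, against 13.98, 7.05 and 6.91 times in Control lines 1 to 3. With the longest annotated transcript as length, the same ratio was 38.0, 40.4 and 39.6 in the clones and 25.5, 13.05 and 12.8 in the Control lines. The size of that ratio therefore depends on the length used. All clones lay above all Control lines with either, but a change of length rescales each gene by the same factor in every library. As P4HA1 made up most of the alpha level, that order could hardly change. P4HA1, like CERCAM, was selected on this contrast, so nothing is read from the separation of their ratios. P4HA1 made up 89.9% to 94.1% of the alpha subunit level per kilobase in ΔNSPs and 94.3% to 98.1% in Control. It was thus the leading alpha subunit transcript in all 6 libraries. PLOD1 over PLOD3 was 1.11, 0.512 and 0.448 per kilobase in the clones and 0.830, 1.26 and 1.27 in the Control lines. COLGALT1 over CERCAM was 8.26, 13.1 and 15.2 in the clones and 6.45, 4.64 and 3.61 in the Control lines.

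**Figure D3:**
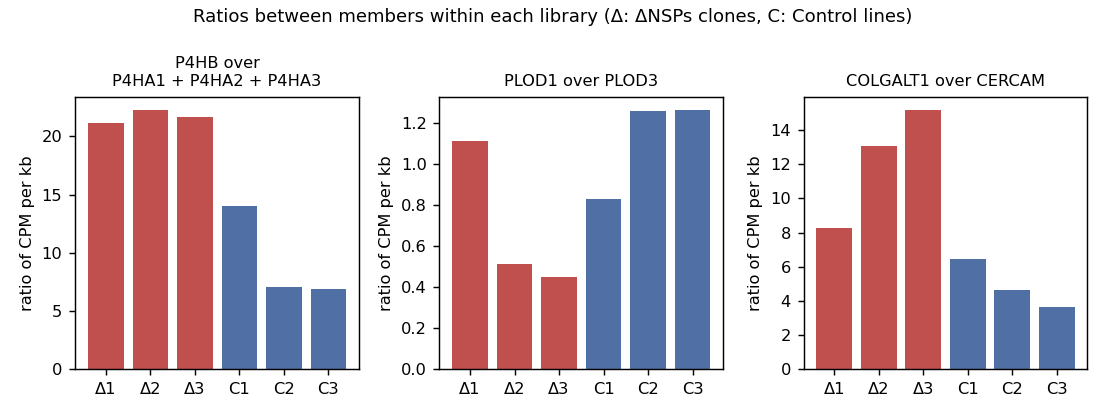
Ratios of CPM per kilobase between collagen-modifying genes (vertical axes, from 0) in ΔNSPs clones (Δ1 to Δ3) and Control lines (C1 to C3). P4HB over the alpha subunits is 21.1 to 22.3 in the clones and 13.98 or less in the Control lines, whereas PLOD1 over PLOD3 in clone 1 (1.11) lies above Control line 1 (0.830).

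Other genes of collagen processing were taken from a list of 34, of which 28 had a row and 25 were tested. In edgeR 0 passed, with 0 up and 5 down by unadjusted p (threshold 0.05), at which 8.6% of all tested genes were down. DESeq2 called 3 as lower (CRTAP, KLHL12 and SEC23A), against 2.34% of the genes to which it gave an adjusted p, and limma voom called 0. The median log2 fold change was -0.24, against 0.0023 over all tested genes. CRTAP, the partner of P3H1 in the prolyl 3-hydroxylation complex, was at 237, 217 and 219 CPM in the clones and at 322, 399 and 423 CPM in the Control lines (log2 fold change -0.77, SE 0.12; edgeR adjusted p = 0.145). All clones lay below all Control lines, as for 7 of the 25 tested genes of the list (11.7% of all tested genes). For 1 of the 25, all clones lay above (12.2% of all tested genes). PPIB, which encodes cyclophilin B, the third partner of that complex, was at 511, 919 and 561 CPM against 612, 510.1 and 563 CPM, and the groups overlapped (edgeR adjusted p = 0.58).

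KLHL12, an adaptor in the ubiquitination of the COPII coat that carries procollagen out of the endoplasmic reticulum, was at 109, 62.4 and 61.9 CPM in ΔNSPs and at 113, 159 and 150.4 CPM in Control (edgeR adjusted p = 0.178). SEC23A, a COPII coat component, was at 39.5, 53.4 and 42.5 CPM in ΔNSPs and 57.2, 77.4 and 69.6 CPM in Control (edgeR adjusted p = 0.177). Both had no overlap between the groups. P3H3, which in mice forms a complex with lysyl hydroxylase 1, was at 6.49 CPM in clone 1 and had 0 counts in clones 2 and 3, against 5.11, 6.95 and 5.72 CPM in the Control lines (edgeR adjusted p = 0.563). Clone 1 therefore lay within the Control range, and the others did not. Without clone 1, 5 genes of the list passed as lower in edgeR: CRTAP, KLHL12, BMP1, MBTPS2 and P3H3. In that fit 3.13% of all tested genes were called as lower. KLHL12, SEC23A and P3H3 were named after their values were seen.

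The substrates were mostly low. Of 44 collagen chain genes 24 had a row and 15 were tested, with 0 edgeR, DESeq2 or limma voom calls. By unadjusted p (threshold 0.05) 0 were up and 2 down, against 1366 up and 1272 down of all 14797 tested genes. The median log2 fold change was -0.15. COL4A2, a basement membrane collagen chain, was the highest in CPM, at 158, 102 and 96.1 CPM in ΔNSPs and 118, 165 and 144 CPM in Control (edgeR adjusted p = 0.534). COL9A2, a chain of the fibril-associated type IX collagen, was at 36.4, 38.4 and 47.2 CPM in ΔNSPs and 41.7, 64.5 and 78.2 CPM in Control (edgeR adjusted p = 0.235). For both, the groups overlapped. The fibrillar chain gene COL1A1 reached 3.78 CPM at most. COL4A1, another basement membrane chain gene, named after its values were seen, reached 1.07 CPM at most and had too few counts to enter the fit.

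Of 29 other genes for proteins with collagen-like repeats or related domains, 12 had a row and 6 were tested, with 0 edgeR and limma voom calls. By unadjusted p (threshold 0.05) 1 was up and 3 down, against 1366 up and 1272 down of all 14797 tested genes. DESeq2 called FCN1 as higher and COLQ as lower, against 4.57% in either direction of the genes to which it gave an adjusted p. EMILIN2, an extracellular glycoprotein, was at 149.8, 186 and 123 CPM in ΔNSPs and 128, 173 and 136 CPM in Control (edgeR adjusted p = 0.867). FCN1, a ficolin of monocytes, was at 23.2, 42.4 and 64.3 CPM in ΔNSPs and 23.9, 14.6 and 20.4 CPM in Control (edgeR adjusted p = 0.189), with clone 1 inside the Control range. COLQ, the collagen tail of acetylcholinesterase, was at 6.84, 5.15 and 5.56 CPM in ΔNSPs and 6.55, 19.4 and 23.8 CPM in Control (edgeR adjusted p = 0.178). Control line 1 lay among the clones for that gene, which passed in edgeR without it (adjusted p = 0.0487).

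Prolyl 4-hydroxylases of a second kind, the EGLN enzymes, hydroxylate the HIF alpha subunit and use the same cofactors. Of 10 genes of oxygen sensing, 7 were tested, with 0 calls in edgeR, DESeq2 or limma voom and 0 at an unadjusted p under 0.05. HIF1AN, the asparaginyl hydroxylase of HIF, was at 217, 213 and 232 CPM in ΔNSPs and 237, 234 and 226 CPM in Control (edgeR adjusted p = 0.687). VHL, which binds hydroxylated HIF, was at 169, 183 and 168 CPM in ΔNSPs and 179, 196 and 192 CPM in Control (edgeR adjusted p = 0.503). HIF1A itself was at 40.8 to 47.4 CPM in ΔNSPs and 44.2 to 48.2 CPM in Control. EGLN1, named after its values were seen, varied within both groups: it was at 0.428, 33.2 and 32.8 CPM in clones 1 to 3 and at 14.5, 1.23 and 1.82 CPM in Control lines 1 to 3 (edgeR adjusted p = 0.444). Clones 2 and 3 were high, clone 1 and Control lines 2 and 3 were low, and Control line 1 was in between.

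Of 30 hypoxia-response genes 26 were tested, with 0 edgeR and limma voom calls, and 2 up and 10 down by unadjusted p (threshold 0.05). DESeq2 called 6 as lower (ALDOC, BNIP3, BNIP3L, DDIT4, PFKFB4 and MXI1) and 0 as higher. Of all genes to which it gave an adjusted p, DESeq2 called 2.34% as lower and 4.57% in either direction. The 2 that were up were SLC2A1 and SLC2A3. SLC2A1 was at 89.7, 135 and 113 CPM in ΔNSPs and 84.5, 74.3 and 74.7 CPM in Control (edgeR adjusted p = 0.182). Every clone lay above every Control line for SLC2A1, the only 1 of the 26 (12.2% of all tested genes). Every clone lay below every Control line for 10 of the 26, ENO1 included (11.7% of all tested genes). Without clone 1, edgeR called 2 as higher (SLC2A1 and SLC2A3) and 4 as lower. That fit called 3.13% of all its tested genes as lower and 6.17% in either direction. The list's median log2 fold change was -0.22, and 21 of the 26 were below 0, against 7358 of all 14797 tested genes. At an unadjusted p under 0.05 in edgeR, 8.6% of all tested genes were down and 17.8% passed in either direction. GAPDH, a glycolytic enzyme, was at 3475, 4194 and 4328 CPM in ΔNSPs and 3865, 3441 and 3966 CPM in Control (edgeR adjusted p = 0.71). ENO1, the glycolytic enolase and the gene of this list with the highest mean CPM, was at 3764, 3953 and 4048 CPM in ΔNSPs and 4066, 4953 and 5639 CPM in Control (edgeR adjusted p = 0.259). Control line 1 was the lowest Control line for ENO1, as it was for P4HA1, CERCAM, PLOD1 and P4HB. It was not the lowest for GAPDH, and it was the highest for SLC2A1 and COLGALT1.

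In the endoplasmic reticulum around P4HB, 23 of 24 listed isomerases, oxidases and chaperones were tested, with 0 edgeR and limma voom calls. By unadjusted p (threshold 0.05) 2 were up and 7 down, against 1366 up and 1272 down of all 14797 tested genes. DESeq2 called PDIA5 and PDIA6 as lower, against 2.34% of the genes to which it gave an adjusted p. The median log2 fold change was -0.22. CALR, the chaperone calreticulin, was at 1831, 2340.2 and 2114 CPM in ΔNSPs and 2117, 2127 and 2083 CPM in Control (edgeR adjusted p = 0.975). CANX, calnexin, was at 775, 853 and 850.0 CPM in ΔNSPs and 878, 913 and 847 CPM in Control (edgeR adjusted p = 0.631). Both overlapped between the groups. Every clone lay below every Control line for 8 of the 23 (11.7% of all tested genes), and every clone lay above for 1 (12.2% of all tested genes). PDIA6, a relative of P4HB, was at 658, 684 and 627 CPM in ΔNSPs and 776, 860.2 and 887 CPM in Control (edgeR adjusted p = 0.178). PDIA5, another isomerase of that family, was at 28.0, 34.97 and 35.9 CPM in ΔNSPs and 47.5, 48.0 and 57.1 CPM in Control (edgeR adjusted p = 0.167).

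Of 9 genes for ascorbate and iron supply 8 were tested, with 0 calls in edgeR, DESeq2 or limma voom and a median of -0.0071. By unadjusted p (threshold 0.05) 3 were up and 2 down, against 1366 up and 1272 down of all 14797 tested genes. FTL, ferritin light chain, was at 4515, 2901 and 3500.0 CPM in ΔNSPs and 3641, 6665 and 6800 CPM in Control (edgeR adjusted p = 0.251). FTH1, ferritin heavy chain, was at 344, 261 and 188 CPM in ΔNSPs and 217, 754 and 639 CPM in Control (edgeR adjusted p = 0.267). For both ferritin chains, Control line 1 lay among the clones, well below the other Control lines.

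**Figure D4:**
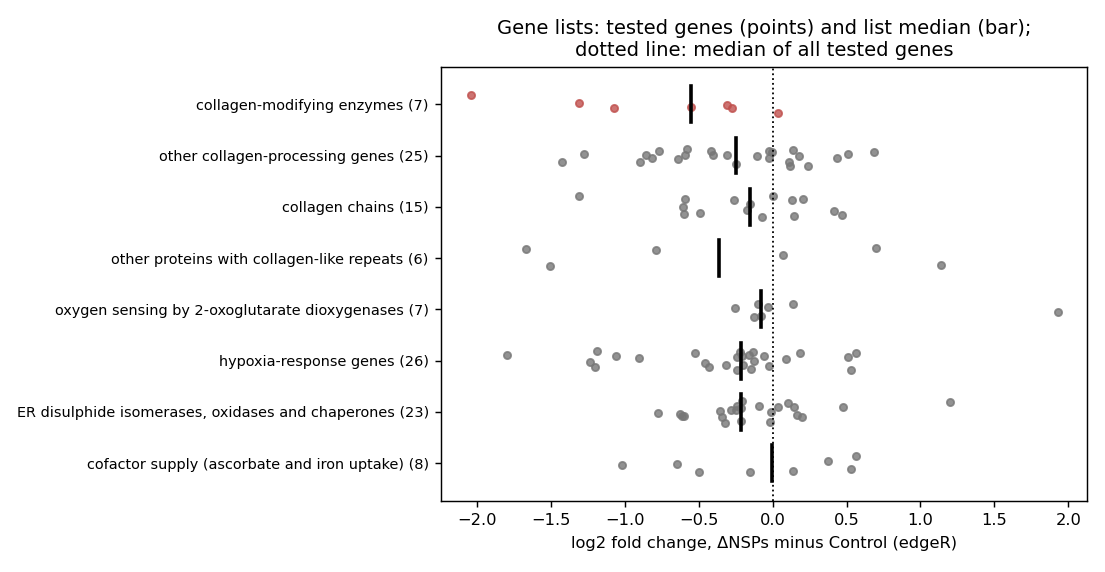
Log2 fold change, ΔNSPs minus Control, from edgeR (horizontal axis) for the tested genes of each list, with the number tested in brackets; bars are list medians and the dotted line is the median of all 14797 tested genes. The collagen-modifying enzymes (red, chosen with this contrast in view) run from -2.04 for P4HA1 to 0.036 for COLGALT1, with a median of -0.55.

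Genes lying next to P4HA1 and CERCAM were examined within 500 kb of their starts. Around P4HA1 17 genes were tested, with 0 edgeR calls and a median log2 fold change of -0.018. By unadjusted p (threshold 0.05) 3 were up and 1 down, against 1366 up and 1272 down of all 14797 tested genes. The 1 lower gene was AL731563.2, an antisense gene inside P4HA1 that shares 47 exonic bases with it. It was at 3.49, 4.31 and 4.04 CPM in the clones and 7.57, 21.2 and 24.1 CPM in the Control lines, and DESeq2 called it. Without the strand setting, its reads cannot be told from those of P4HA1. Leaving it out, the other 16 neighbours ran from -0.53 to 0.36.

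Around CERCAM 36 genes were tested, with 0 edgeR and DESeq2 calls and a median of 0.092. By unadjusted p (threshold 0.05) 3 were up and 4 down, against 1366 up and 1272 down of all 14797 tested genes. The lowest, AL359091.5 at -1.44, is annotated within an intron of CERCAM on the same strand and was at 0.530 to 0.590 CPM in ΔNSPs and 1.19 to 2.17 CPM in Control. The other 35 neighbours ran from -0.59 to 0.57. For both genes, every tested neighbour that does not overlap them had a log2 fold change nearer to 0 than the gene itself. The overlapping AL731563.2 was at -2.16, against -2.04 for P4HA1. Because P4HA1 and CERCAM were selected for their differences in this contrast, nothing is read from that order.

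**Figure D5:**
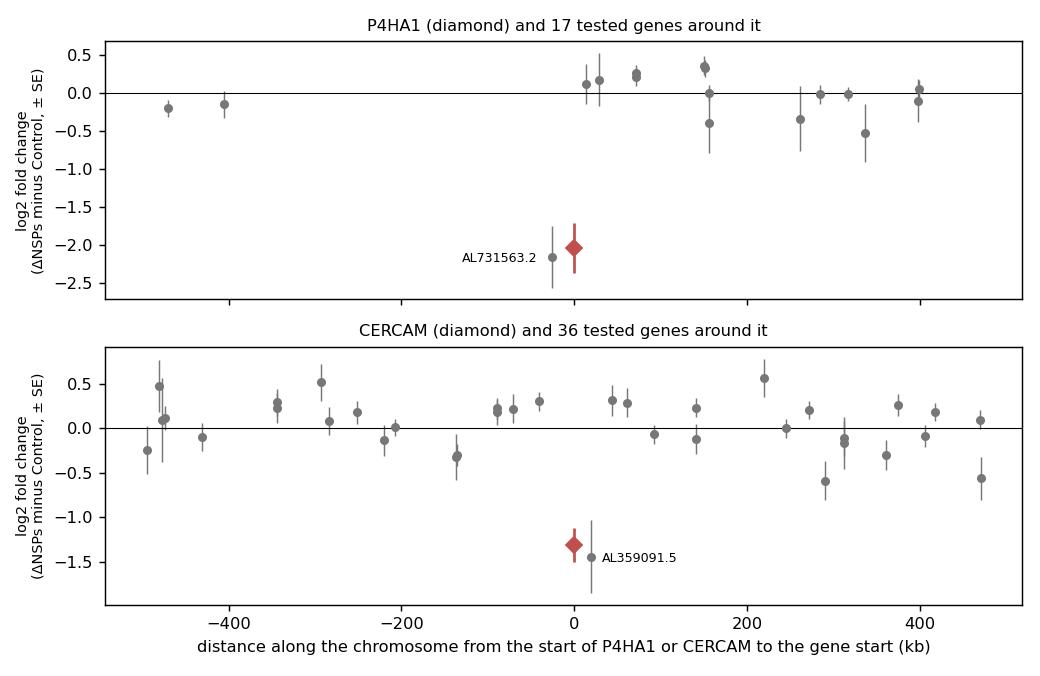
Log2 fold change ± SE, ΔNSPs minus Control (vertical axes), of P4HA1 and CERCAM (red diamonds) and of the tested genes starting within 500 kb (grey), by distance along the chromosome in kb. Beside the overlapping genes AL731563.2 and AL359091.5, the neighbours stay between -0.59 and 0.57.

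The genes most like P4HA1 and CERCAM across the 6 libraries were found among 8951 other protein-coding genes averaging at least 10 CPM. Likeness was the root mean square difference of log2(CPM + 0.5), centred on the 6 libraries. Nearest to P4HA1 were YPEL5 (0.33), TNFAIP3 (0.36), COLQ (0.37), TRIM16L (0.38) and IFIH1 (0.39), and CERCAM ranked 9 at 0.44. With a pseudocount of 2 CPM, 3 of these 5 remained among the nearest 5. Nearest to CERCAM were BNIP3L (0.10), ALDH6A1 (0.11), TMEM263 (0.15), ADAMTSL4 (0.16) and DDIT4 (0.18), and PLOD1 ranked 15 at 0.25. BNIP3L stood at 35.6, 30.4 and 29.7 CPM in the clones and at 54.1, 79.8 and 86.7 CPM in the Control lines. BNIP3L and DDIT4 are also in the hypoxia-response list. P4HB ranked 231 for P4HA1 and 225 for CERCAM among the 8951 genes. The measure takes in the size of a difference as well as its shape. P4HB had a smaller log2 fold change (-0.55) than P4HA1 (-2.04), so its rank does not tell whether the shapes differ.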

How the data were processed

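RNA-seq libraries of 3 ΔNSPs clones and 3 Control lines were analysed. The authors deposited a table of unnormalized read counts by Ensembl identifier. The tools in the submitters' processing notes are HTSeq 0.11.1, SAMtools 1.5.9, HISAT2 2.0.0 and FastQC, and the build is GRCh38.p12. Neither annotation release nor strand setting is given in those sources. Symbols, positions and exon lengths came from GENCODE release 29 (18771 of 18798 identifiers matched), and promoter windows from RefSeq on GRCh38.p14.

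The main test was edgeR 4.0.16 in R 4.3.3: TMM factors, filterByExpr by group, quasi-likelihood fit on group alone, two-sided, Benjamini-Hochberg adjusted over 14797 genes at 0.05. CPM used TMM-scaled totals. SE is the fold change divided by the root of the test statistic. DESeq2 1.42.0 and limma 3.58.1, as voom with quality weights per sample, ran on the same genes as alternatives, and the tests were tested on simulated data. Further alternatives were other size factors and filters, a replicate block, and leaving out each library. No libraries of a group agreed within sampling noise (chi-square per degree of freedom 7.65 or more).

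Members and lists were chosen with earlier results of these data known. Named by rule were the members, the targeted genes, up to 4 edgeR calls and the 2 most abundant tested genes of each list, and the 5 genes nearest in pattern to P4HA1 and to CERCAM. Genes called by DESeq2 or without 1 library, and others said to be so, were named after their values were seen.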

Additional observations from a re-analysis of the deposited data

How the results depend on the processing

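The 7 tested members had 98 alternative log2 fold changes in all, counting each gene under each other setting. Each stayed within the spread between libraries of its reported value. Leaving out 1 of 3 libraries can hardly move a group mean beyond that spread, so nothing is read from this for those fits. P4HA1 ranged from -2.37 to -1.76, CERCAM from -1.47 to -1.10, PLOD1 from -1.36 to -0.85, P4HB from -0.64 to -0.45, P3H1 from -0.43 to -0.24 and PLOD3 from -0.45 to -0.14. COLGALT1 ran from -0.085 to 0.16. Numbers of calls moved with the tool and with single libraries; the cause was not tested. Over all genes edgeR called 3, DESeq2 571, the replicate block 0 (1779 genes at an unadjusted p under 0.05), and leaving out 1 library 0 to 928: 928 without ΔNSPs clone 1, 20 without Control line 1, 1 without clone 3 and 0 without Control line 2 or 3. Of the members edgeR called 0, DESeq2 4, and leaving out 1 library gave 0 to 3. DESeq2 called 3 of the other collagen-processing genes (0 to 5 on leaving out 1 library), 2 of the genes with collagen-like repeats (0 to 1), 6 hypoxia-response genes (0 to 6), 2 isomerases and chaperones (0 to 2) and 1 neighbour of P4HA1 or CERCAM (0 to 2). Supply genes had 0 to 2 calls on leaving out 1 library. All these counts take higher and lower genes together. Same-numbered libraries did not deviate together (correlations -0.43, -0.16 and -0.14). With 3 libraries a group, that cannot tell whether same-numbered libraries shared a batch. The main fit did not pair them, and the block called 0 members. Depth limits P4HA2 and SERPINH1, which had 41 and 17 counts in all. Levels per kilobase over all libraries moved beyond the spread with the longest annotated transcript as length for P4HB (824 CPM per kb, against 404), COLGALT1 (121, against 91.8), PLOD3 (67.8, against 34.9), PLOD1 (57.7, against 31.9) and P3H1 (26.3, against 11.7).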
